A study of Mus musculus with 7 samples.

Results

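The carriers of amino acids, peptides and monocarboxylates were described in the dental epithelium of the lower incisor of newborn mice. They were taken as the genes of 9 solute carrier families (SLC1, SLC3, SLC6, SLC7, SLC15, SLC16, SLC36, SLC38 and SLC43) whose mouse symbol carries the family name and that reached 10 counts in 2 or more of the 7 libraries. This gave 58 genes, of 14908 genes in all that met the same minimum. Another 25 genes of these families in the count files did not meet it, and 7 of them had 0 counts in every library. Among those below the minimum were Slc3a1, Slc7a9 and Slc6a14. The symbol rule also takes in Slc7a6os, a neighbour of Slc7a6 that is named for its place on the opposite strand and is not a carrier. Its values are given apart where they matter.

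The samples came from pups at PN0 of 2 genotypes. K14;Nogo-A pups (K14cre cre/+; Nogo-A fl/fl, 4 libraries, replicates 1, 2, 7 and 10) carry a cre driven by the keratin 14 promoter, which acts in the epithelium and removes Nogo-A there, and wild-type littermates (3 libraries, replicates 3, 8 and 9) were the controls. Each library was poly(A) RNA of the epithelium of the left and right incisors of 1 pup, separated with Dispase and taken from the posterior part of the tissue. A library held between 20929207 and 41219439 counts. Counts were scaled to CPM (each count as a share of the library, scaled with TMM factors), and CPM were divided by the exon length in kilobases wherever 1 gene is compared with another. The genotypes were compared by edgeR's quasi-likelihood test over 14791 genes. The words rose and fell are kept for adjusted p-values under 0.05. The study's thresholds were looser, with an unadjusted P up to 0.05 and a log2 fold change of 0.5 or more in either direction.

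Amino acids cross the cell membrane on carriers that differ in what drives them. Sodium-coupled carriers of the SLC1, SLC6 and SLC38 families pull amino acids into the cell against their gradient, and exchangers of the SLC7 family trade one amino acid for another. Several SLC7 exchangers reach the membrane only when bound to a heavy chain of the SLC3 family. Some SLC36 carriers and the peptide carriers of SLC15 move their cargo with protons. The best known members of SLC16 carry lactate and pyruvate with a proton. A secretory epithelium that makes large amounts of matrix protein, as ameloblasts do with amelogenin, draws on such uptake for its building blocks.

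The tissue held the markers of its label and those of other cells. The 6 epithelial markers, Krt14, Krt5 and Epcam among them, summed to between 5186 and 8299 CPM in the 7 libraries. The 7 ameloblast markers summed to 31399 to 103577 CPM in K14;Nogo-A and to 12759 to 40506 in wild-type. The 16 mesenchyme markers summed to 11493 to 33409 and to 26882 to 41634 CPM, and all 16 had a negative log2 fold change. Odontoblast and osteoblast markers, 8 genes, summed to 1921 to 5634 CPM and to 4259 to 6628. In bulk tissue fewer cells of a type and less RNA per cell cannot be told apart. Rtn4, the gene of Nogo-A, averaged 301 ± 39.1 CPM over the 3 wild-type libraries and 327 ± 21.3 over the 4 of K14;Nogo-A (SD). A count over the whole gene includes the transcripts without the Nogo-A exon and does not check the genotypes. The 7 libraries were not balanced for sex, which the labels do not give, between the genotypes, since Y-linked genes had a mean log2 CPM of 4.94 to 5.27 in K14;Nogo-A replicate 1 and wild-type replicates 3 and 8 and of -3.71 to -3.04 in the other 4 libraries.

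A few carriers made up most of the summed level of the group. The 58 genes took between 0.20% and 0.238% of the counts of a library. By CPM per kilobase, averaged over the 7 libraries, the 10 highest genes held 65.4% of the summed level. The median carrier was at 2.74 CPM per kilobase, against 5.05 over all genes tested, and 18 of the 58 were above that median of all genes. At the other end 19 genes were under 1 CPM per kilobase.

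**Figure D1:**
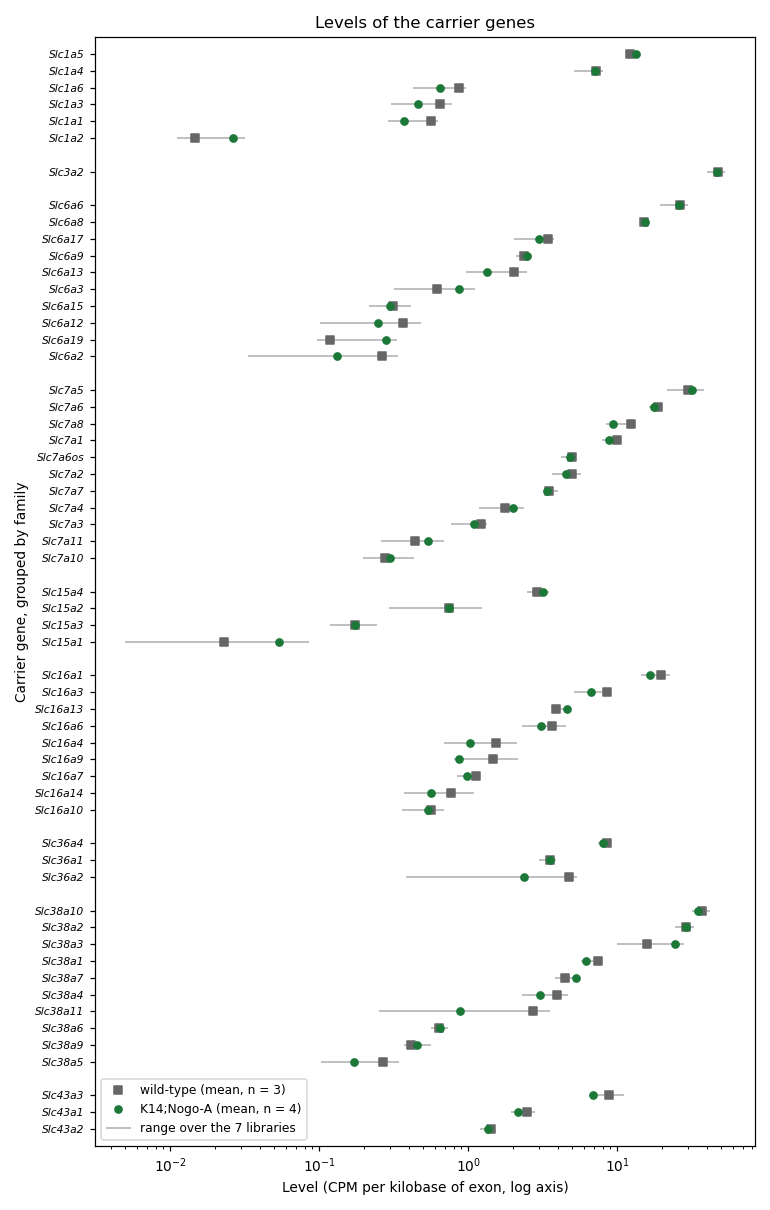
Level of each carrier gene but 1 in CPM per kilobase of exon (horizontal log axis), grouped by family, with the wild-type mean (grey squares, n = 3), the K14;Nogo-A mean (green circles, n = 4) and the range over the 7 libraries (lines). Slc3a2 has the highest level at 47.3 and Slc1a2 the lowest at 0.0214 CPM per kilobase, and in most genes the 2 means lie close together against the distance between genes.

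Slc3a2, the heavy chain that brings the LAT-type exchangers to the membrane, had the highest level of all, at 47.3 CPM per kilobase (range over the libraries 39.97 to 53.0). Next were Slc38a10, a member of the sodium-coupled neutral amino acid family, at 35.8 (31.7 to 42), and Slc7a5 (LAT1), the light chain that takes up leucine and other large neutral amino acids, at 30.8 (21.4 to 38.5). Slc38a2, which takes up glutamine and alanine with sodium, followed at 28.8 (24.4 to 32.6), and Slc6a6, the taurine carrier, at 26 (19.4 to 29.8). Slc3a2 was above Slc38a10, Slc7a5, Slc38a2 and Slc6a6 in each of the 7 libraries. Among the latter genes the order of neighbours changed between libraries, so it is not fixed. Slc38a3, a glutamine carrier that runs in both directions, was at 20.7 CPM per kilobase with the wide range of 9.91 to 28.2. Slc7a6 (18.0), a partner of Slc3a2 for basic amino acids, Slc16a1 (17.9), the lactate carrier MCT1, Slc6a8 (15.3), the creatine carrier, and Slc1a5 (12.8), a glutamine exchanger, completed the 10 highest.

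By family, SLC38 held 26.6% of the summed CPM per kilobase and SLC7 22.1%. SLC6 held 13.0%, SLC16 12.7% and SLC3, with the single gene Slc3a2, 12.2%. The shares of SLC1 (5.59%), SLC36 (3.91%), SLC43 (2.93%) and SLC15 (1.03%) were smaller. A single gene held most of the level in several of them, with Slc1a5 at 59.0% of SLC1, Slc6a6 at 51.8% of SLC6 and Slc15a4, a histidine and peptide carrier of lysosomes, at 76.1% of SLC15. The high-affinity glutamate carriers known from brain were low. Slc1a2, the lowest carrier of all, was at 0.0214, Slc1a1 at 0.453, Slc1a3 at 0.539 and Slc1a6 at 0.746 CPM per kilobase. The peptide carrier of the gut, Slc15a1, was at 0.0405 CPM per kilobase, with 1 to 12 counts in a library. Slc7a11, the cystine and glutamate exchanger, was low as well at 0.496, and Slc38a9, the arginine sensor of the lysosome, was at 0.435.

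Short DNA motifs of factors known to act on carriers of this kind were searched in the 250 bases before the start sites, on both strands, in the RefSeq promoters of GRCm38. Promoters were at hand for 40 of the 58 genes. The amino acid response element core TGATGNAA, which binds ATF4, was found in 2 of the 40 (5%), Slc7a11 and Slc7a7, against 3.91% of 27025 genes. The E-box CACGTG was found in 7 of the 40 (17.5%) against 6.86% of all genes. The antioxidant response element core TGACNNNGC was also found in 7 (17.5%), against 11.5%. The heat shock element was found in Slc6a17 alone (2.50%), against 0.514%. A match is a description of the letters and not a bound site. The stretches below are shown because they hold the 2 response elements of Slc7a11, and the E-box of 4 carriers of different families, outside the annotated gene. Each is read 5′ to 3′ on the strand of the gene, with the motif in capitals.
Slc7a11 (chr3:50443633-50443699, minus strand, the first element 66 bases before the start): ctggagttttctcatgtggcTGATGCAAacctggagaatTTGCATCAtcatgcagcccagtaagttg
Slc16a1 (chr3:104638444-104638489, plus strand, E-box 200 bases before the start): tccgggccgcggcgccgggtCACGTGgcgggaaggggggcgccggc
Slc36a1 (chr11:55204289-55204334, plus strand, E-box 31 bases before the start): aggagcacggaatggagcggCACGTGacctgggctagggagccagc
Slc1a6 (chr10:78780444-78780489, plus strand, E-box 32 bases before the start): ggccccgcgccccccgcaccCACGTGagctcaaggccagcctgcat
Slc6a3 (chr13:73536530-73536575, plus strand, E-box 197 bases before the start): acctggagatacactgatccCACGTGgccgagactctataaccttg
In Slc7a11 the second element is the reverse complement of the first, TTGCATCA, and does not overlap it. In Slc16a1 a match of the antioxidant element on the other strand overlaps the E-box.

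Few carriers differed between the genotypes past the study's thresholds, and none rose or fell. Of 56 carriers tested, 2 were past the thresholds as higher (Slc6a19 and Slc38a3) and 2 as lower (Slc16a9 and Slc1a1). Over all genes tested 2.02% were higher and 2.74% lower, so these counts were near the background. In either direction 4 carriers passed, against 4.77% of all genes. At an adjusted p under 0.05 edgeR's quasi-likelihood test called 0 carriers, where it called 0% of all genes as higher and 0.0338% as lower. The lowest adjusted p of a carrier was 0.20. At an unadjusted P under 0.05 it held 2 higher and 8 lower carriers, where over all genes 6.25% were higher and 6.66% lower. EdgeR's likelihood-ratio test called 1 carrier (Slc6a19, higher, adjusted p = 0.025), and DESeq2 and limma-voom called 0. Of the 14791 genes these tools called 166, 317 and 4, so the single carrier was near the background. DESeq2 gave Slc6a19 no adjusted p. The 2 genes not tested, Slc1a2 and Slc15a1, had too few counts. Of the log2 fold changes 15 were positive and 41 negative, with a median of -0.09, against 51.5% negative and a median of -0.01 over all genes tested.

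**Figure D2:**
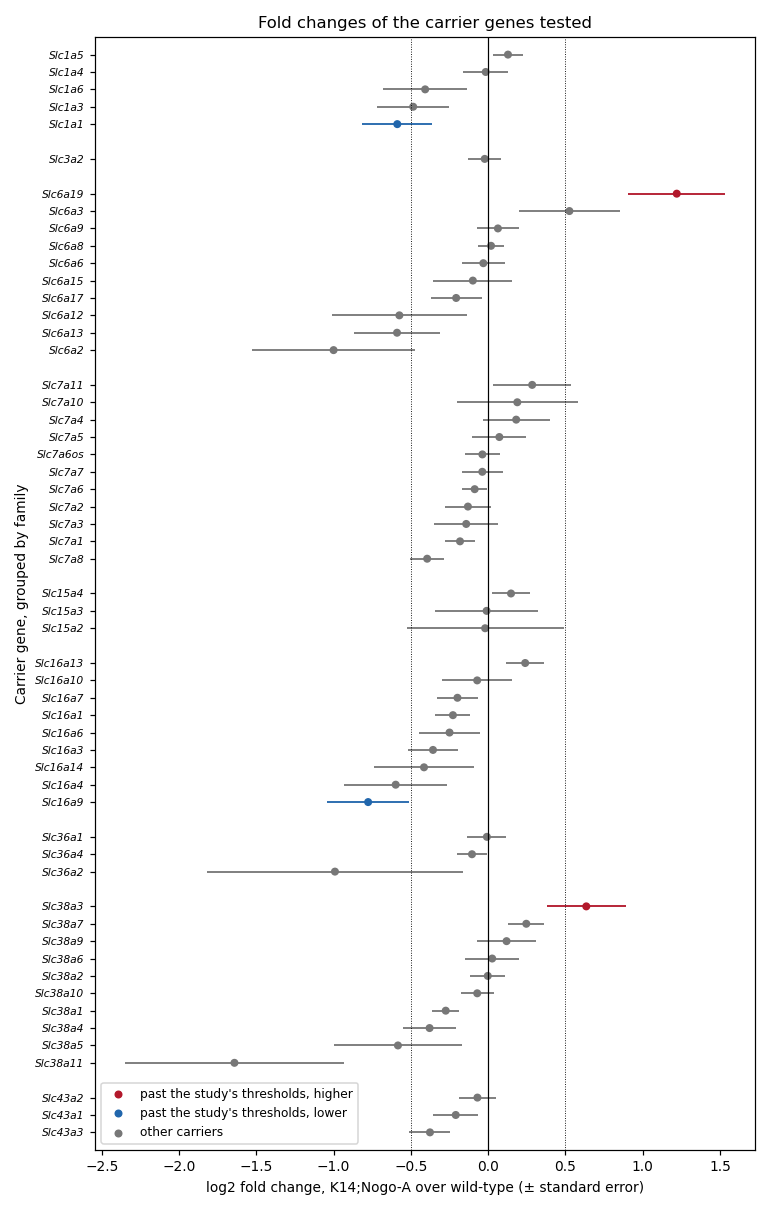
Log2 fold change of K14;Nogo-A over wild-type (horizontal axis, with the standard error as lines) for each carrier tested but 1, grouped by family, with those past the study's thresholds in red (higher) and blue (lower) and the threshold of 0.5 dotted. Slc6a19 stands highest at 1.22, and Slc38a11, with the lowest value of -1.64, has a standard error of 0.71 and is not past the thresholds.

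Slc6a19 (ENSMUSG00000021565, chromosome 13 of GRCm38 from 73679745 to 73704865) is the sodium-coupled carrier of neutral amino acids known from gut and kidney. It was at 0.969, 1.46, 1.67 and 1.53 CPM in K14;Nogo-A replicates 1, 2, 7 and 10 and at 0.763, 0.536 and 0.480 CPM in wild-type replicates 3, 8 and 9. All 4 K14;Nogo-A libraries lay above all 3 wild-type libraries, on 10 to 48 counts a library. The log2 fold change was 1.22 (SE, the standard error, 0.31, adjusted p = 0.20), from 0.593 ± 0.15 CPM (SD, n = 3) to 1.41 ± 0.305 (SD, n = 4). Per kilobase it was 1 of the 5 lowest carriers, at 0.211.

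Slc38a3 (ENSMUSG00000010064, chromosome 9 from 107650634 to 107669530) was the abundant carrier among the 4. It was at 95, 149, 135 and 136 CPM in K14;Nogo-A replicates 1, 2, 7 and 10 and at 83.6, 52.3 and 113 CPM in wild-type replicates 3, 8 and 9. K14;Nogo-A replicate 1 lay below wild-type replicate 9, so the genotypes overlapped. Slc38a3 had 0.63 as its log2 fold change (SE 0.26, adjusted p = 0.36). Slc38a3 was no longer past the thresholds without any 1 of 5 libraries, with values of 0.56 without K14;Nogo-A replicate 2, 0.61 without replicate 7, 0.61 without replicate 10, 0.64 without wild-type replicate 3 and 0.39 without wild-type replicate 8, nor when Y-linked genes were a covariate (0.40).

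**Figure D3:**
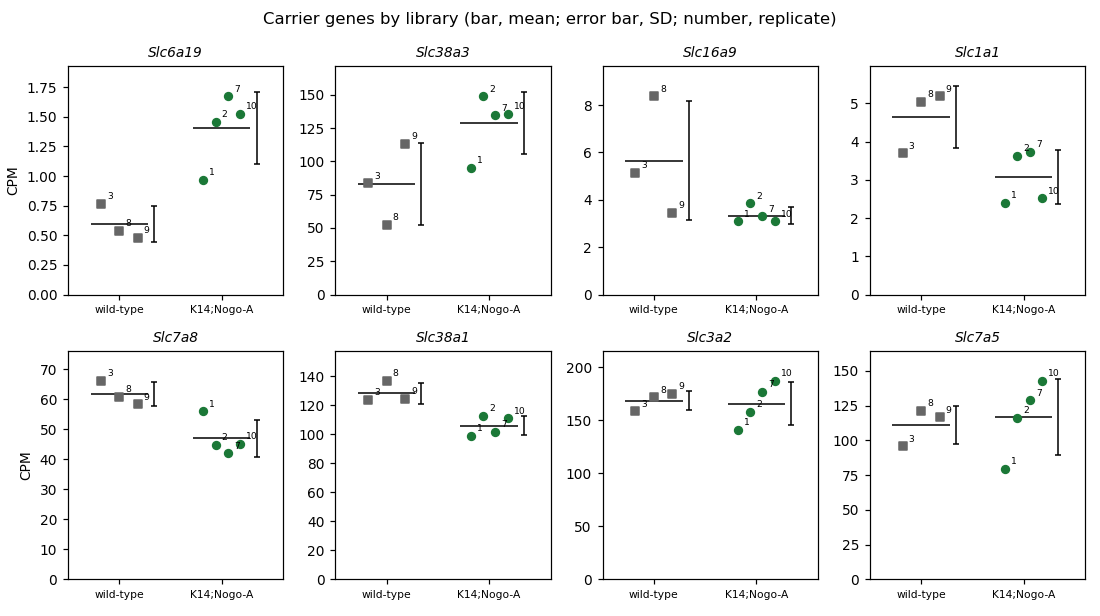
CPM of 8 carriers (vertical axes, from 0) in each library, with wild-type as grey squares (n = 3) and K14;Nogo-A as green circles (n = 4), numbered by replicate, with the mean as a bar and the SD as an error bar. Slc6a19, Slc7a8 and Slc38a1 show no overlap between the genotypes, Slc38a3, Slc16a9 and Slc1a1 overlap in 1 or more libraries, and Slc3a2 and Slc7a5 have nearly the same mean in both.

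Slc16a9 (ENSMUSG00000037762, chromosome 10 from 70245100 to 70285968), a carrier of carnitine, was at 3.09, 3.85, 3.31 and 3.09 CPM in K14;Nogo-A replicates 1, 2, 7 and 10. In wild-type replicates 3, 8 and 9 it was at 5.13, 8.38 and 3.46 CPM. Wild-type replicate 9 lay within the K14;Nogo-A range, and replicate 8 was the highest. Slc16a9 had a log2 fold change of -0.78 (SE 0.26, adjusted p = 0.28). Without wild-type replicate 8 it was -0.38 and not past the thresholds. When Y-linked genes were a covariate it was -0.57 and not past them either. Exons of Slc16a9 overlap an antisense gene over 491 bases, and whether the counting used strand is not stated.

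Slc1a1 (ENSMUSG00000024935, chromosome 19 from 28835049 to 28913960), a glutamate and cysteine carrier, was at 2.40, 3.62, 3.73 and 2.52 CPM in K14;Nogo-A replicates 1, 2, 7 and 10. It was at 3.70, 5.04 and 5.19 CPM in wild-type replicates 3, 8 and 9. K14;Nogo-A replicate 7 lay just above wild-type replicate 3, and no other pair of libraries crossed. For Slc1a1 the log2 fold change was -0.59 (SE 0.23, adjusted p = 0.31). It was not past the thresholds without K14;Nogo-A replicate 1 (-0.49) or 10 (-0.50), or without wild-type replicate 8 (-0.52) or 9 (-0.50). Of its exons 31.9% overlap a gene on the other strand, 4430402I18Rik, which had 56 counts in all 7 libraries together.

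Some carriers with smaller fold changes were apart in every library. The genotypes did not overlap in 8 of the 56 carriers, with K14;Nogo-A above in 3 (Slc6a19, Slc38a7 and Slc16a13) and below in 5, among them Slc7a8, Slc38a1, Slc43a3 and Slc7a6. Over all genes tested 5.43% lay above and 6.09% below in this way, so these counts were near the background. Most of these genes were chosen after their values were seen. Slc7a8 (LAT2), another light chain of Slc3a2 for neutral amino acids, was at 56.1, 44.9, 42.1 and 45.2 CPM in K14;Nogo-A replicates 1, 2, 7 and 10 and at 66.2, 60.9 and 58.4 CPM in wild-type replicates 3, 8 and 9. K14;Nogo-A replicate 1 lay closest to wild-type. The log2 fold change of Slc7a8 was -0.40 (SE 0.11, adjusted p = 0.22), and without K14;Nogo-A replicate 1 it was -0.49 with an adjusted p of 0.033. Slc38a1, which takes up glutamine with sodium, was at 106 ± 6.85 CPM (SD, n = 4), compared with 128 ± 7.28 (SD, n = 3), a log2 fold change of -0.27 (SE 0.09, adjusted p = 0.26). In Slc7a6 the highest K14;Nogo-A library, at 83.9 CPM, lay just below the lowest wild-type library, at 84.8. Slc38a7, a glutamine carrier of lysosomes, was the other way, at 21.8 ± 0.894 (SD, n = 4) against 18.4 ± 2.21 CPM (SD, n = 3).

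The summed CPM of the SLC16 family lay below wild-type in every K14;Nogo-A library. Its 10 members summed to 197, 188, 220 and 208 CPM in K14;Nogo-A replicates 1, 2, 7 and 10 and to 236, 275 and 238 CPM in wild-type replicates 3, 8 and 9, without overlap. The mean of K14;Nogo-A was 0.813 of that of wild-type. Of the 10 log2 fold changes 9 were negative, with a median of -0.30, and 1 member (Slc16a9) was past the study's thresholds. No test was run on the sum. The log2 fold changes of the mesenchyme, endothelial and leukocyte markers were negative too, in 16 of 16, 6 of 6 and 7 of 7 genes, with medians of -0.53, -0.51 and -0.33, and their part in the result was not tested.

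Within SLC16, the lactate carriers Slc16a1 (MCT1) and Slc16a3 (MCT4) were at 17.9 and 7.47 CPM per kilobase. Slc16a1 was at 74.0 ± 7.78 CPM (SD, n = 4), compared with 86.6 ± 11.3 (SD, n = 3), with a log2 fold change of -0.23 (SE 0.11, adjusted p = 0.42). Slc16a3 was at 35.4 ± 8.41 against 45.4 ± 4.01 CPM, with -0.36 (SE 0.16, adjusted p = 0.38), and past the thresholds without K14;Nogo-A replicate 7 (-0.52). Slc16a13 was the positive member of the family, at 0.24 (SE 0.12, adjusted p = 0.44).

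**Figure D4:**
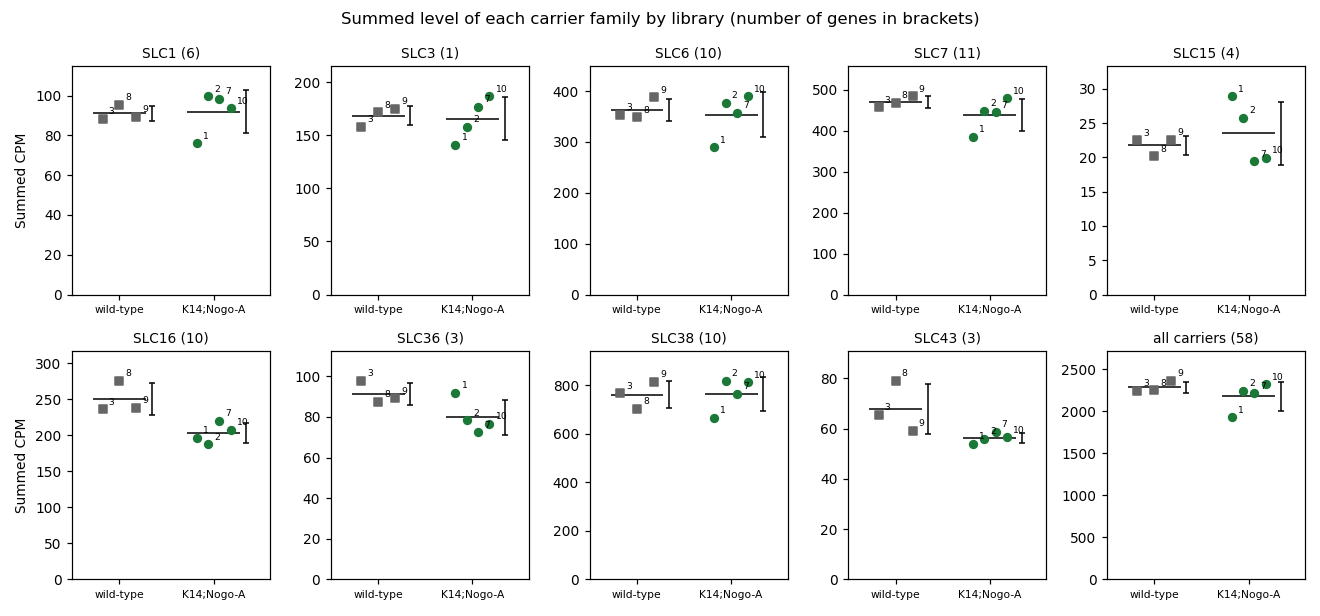
Summed CPM of each carrier family, and of all 58 carriers (vertical axes, from 0), in each library, with wild-type as grey squares (n = 3) and K14;Nogo-A as green circles (n = 4), numbered by replicate, with the mean as a bar and the SD as an error bar. The SLC16 sums reach 220 at most in K14;Nogo-A and 236 at least in wild-type, and in SLC1, SLC3, SLC6, SLC7 and SLC38 K14;Nogo-A replicate 1 is the lowest library.

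The means of SLC43 stood nearly as far apart as those of SLC16. The SLC43 members carry branched-chain amino acids or, for Slc43a3, purine bases. They summed to 67.9 ± 10.1 CPM (SD, n = 3) in wild-type and to 56.3 ± 1.94 (SD, n = 4) in K14;Nogo-A, without overlap. The gap was narrow, from 58.7 CPM in K14;Nogo-A replicate 7 to 59.2 in wild-type replicate 9. Wild-type replicate 8 was the highest library, at 79.0 CPM. The SLC43 ratio of K14;Nogo-A to wild-type was 0.83 in CPM. Per kilobase of exon the ratios were 0.810 for SLC43, 0.819 for SLC16 and 0.825 for SLC36, so the order of these families depends on the scale. Slc43a3 made up 56% of this sum, with a log2 fold change of -0.38 (SE 0.13, adjusted p = 0.29). SLC36 summed to 79.8 ± 8.47 against 91.4 ± 5.48 CPM, with overlap. For SLC38 the sums were 766 ± 70.8 and 762 ± 56.5 CPM, for SLC7 439 ± 39.3 and 470 ± 13.5, for SLC6 354 ± 44.5 and 363 ± 21.3, and for SLC1 91.9 ± 10.9 and 91 ± 3.78. All 58 genes together summed to 2286 ± 65.5 CPM in wild-type and to 2179 ± 173 in K14;Nogo-A, which differed by less than the SD of K14;Nogo-A.

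Within the families the log2 fold changes of single members spread more widely than the sums. In SLC6 they ran from -1.0 (Slc6a2) to 1.22 (Slc6a19), with 4 of 10 positive and a median of -0.07. In SLC38 they ran from -1.64 (Slc38a11) to 0.63 (Slc38a3), with 4 of 10 positive and a median of -0.04. The 11 SLC7 genes stayed between -0.40 (Slc7a8) and 0.28 (Slc7a11), with 4 positive and a median of -0.04, and none was past the study's thresholds. The 5 tested SLC1 genes had a median of -0.41, with Slc1a5 as the positive member. All 3 SLC36 and all 3 SLC43 genes were negative, and the 3 tested SLC15 genes lay between -0.02 and 0.15.

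Most of the 10 carriers with the highest levels lay close together in the 2 genotypes. Among these 10, Slc38a3 had a log2 fold change of 0.63 and Slc16a1 of -0.23, as given above. Slc7a6, without overlap between the genotypes, had -0.09 (SE 0.08). Slc3a2 was at 141, 158, 177 and 187 CPM in K14;Nogo-A replicates 1, 2, 7 and 10 and at 158, 172 and 175 CPM in wild-type replicates 3, 8 and 9. Its log2 fold change was -0.02 (SE 0.11). Slc7a5, its light chain, was at 79.4, 116, 129 and 143 CPM and at 95.8, 121 and 117 CPM, with 0.07 (SE 0.17). In both genes K14;Nogo-A replicate 1 was the lowest and replicate 10 the highest of the 7 libraries. The log2 fold change was -0.00 for Slc38a2 (SE 0.11), -0.07 for Slc38a10 (SE 0.11), -0.03 for Slc6a6 (SE 0.14) and 0.02 for Slc6a8 (SE 0.08). For Slc1a5 it was 0.13 (SE 0.10). Outside the 10 highest, the log2 fold change was -0.01 for Slc36a1 (SE 0.13) and -0.11 for Slc36a4 (SE 0.10). The median standard error over the 56 carriers was 0.17, and differences of about that size were not detectable. Larger ones could be missed too, since Slc7a8 at -0.40 (SE 0.11) was not called at an adjusted p under 0.05. Slc7a11 and Slc38a9, with lower counts, had 0.28 (SE 0.25) and 0.12 (SE 0.19). Slc7a6os, which is no carrier, had -0.04 (SE 0.11).

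The libraries of 1 genotype differed among themselves. K14;Nogo-A replicate 1 was the lowest of the 7 libraries in 20 of the 56 carriers and the highest in 5, and wild-type replicate 8 was the lowest in 12 and the highest in 14. Over all genes tested these libraries were the lowest in 19.8% and 19.3%. Slc15a2, a peptide carrier, differed most evenly within K14;Nogo-A, at 9.14 and 8.04 CPM in replicates 1 and 2 and at 2.44 and 2.17 in replicates 7 and 10. The wild-type libraries lay between these pairs, at 5.87, 5.94 and 4.51 CPM. The means were nearly equal, with -0.02 as the log2 fold change (SE 0.51).

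A few carriers followed the summed markers of odontoblasts and osteoblasts, and of mesenchyme, from library to library. They were chosen after their values were seen. Slc36a2, a proton-coupled carrier of small amino acids, was at 17.0, 1.24, 2.89 and 9.76 CPM in K14;Nogo-A replicates 1, 2, 7 and 10 and at 17.1, 11.3 and 17.5 CPM in wild-type replicates 3, 8 and 9. Slc38a11 was at 7.66, 1.33, 1.08 and 5.07 CPM and at 15.4, 6.82 and 13.0 CPM. Slc6a2, the noradrenaline carrier, was at 1.66, 0.486, 0.209 and 0.953 CPM and at 1.84, 0.999 and 2.11 CPM. All 3 were lowest in K14;Nogo-A replicates 2 and 7, then in replicate 10 and wild-type replicate 8. The 8 odontoblast and osteoblast markers summed to 5634, 1921, 2179 and 4041 CPM in K14;Nogo-A replicates 1, 2, 7 and 10 and to 6628, 4259 and 6614 CPM in wild-type replicates 3, 8 and 9, with these 4 libraries in the same places. The summed CPM of the 16 mesenchyme markers put the 7 libraries in the same order. These sums were 33409, 11493, 12719 and 20167 CPM and 41634, 26882 and 37453 CPM. Most of each sum was Col1a1, at 23012, 6192, 6469 and 12554 CPM and at 28134, 15656 and 24874 CPM. The mean log2 CPM of the same markers gave another order, with wild-type replicate 8 highest at 8.48. Whether the pattern is particular to odontoblasts and osteoblasts cannot be told from these sums. The log2 fold changes of the 3 carriers were -0.99 (SE 0.83), -1.64 (SE 0.71) and -1.0 (SE 0.53), and none was past the study's thresholds. The part of the RNA of either group of cells in these values was not tested.

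**Figure D5:**
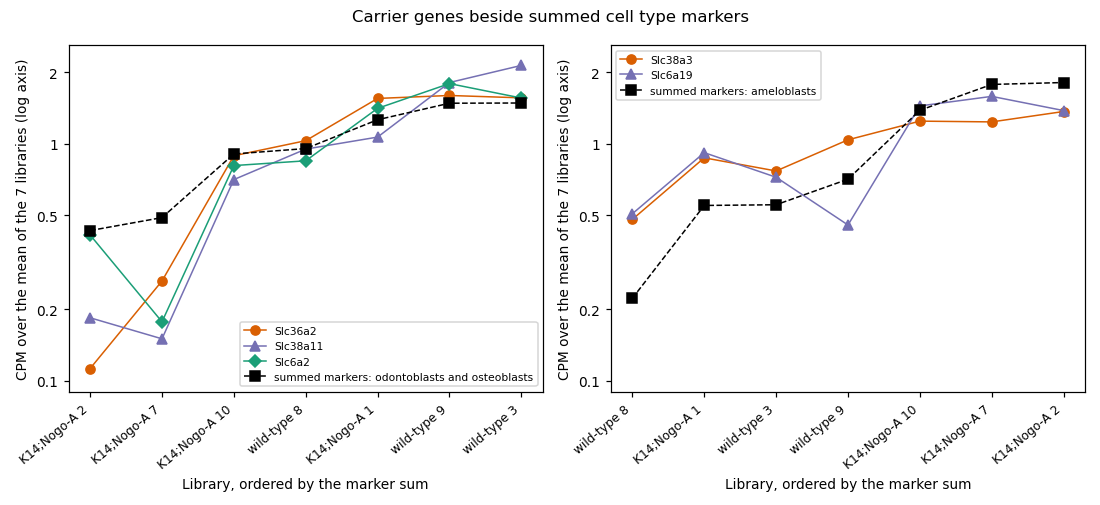
CPM divided by the mean of the 7 libraries (vertical log axes) for Slc36a2, Slc38a11 and Slc6a2 beside the summed odontoblast and osteoblast markers (left) and for Slc38a3 and Slc6a19 beside the summed ameloblast markers (right, dashed black in both), with the libraries ordered by the marker sum. On the left K14;Nogo-A replicates 2 and 7 are lowest in all 4 lines, and on the right K14;Nogo-A replicates 2, 7 and 10 are highest in all 3.

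The 2 carriers past the thresholds as higher were set beside the ameloblast markers. These markers summed to 31399, 103577, 101660 and 79091 CPM in K14;Nogo-A replicates 1, 2, 7 and 10 and to 31619, 12759 and 40506 CPM in wild-type replicates 3, 8 and 9. Slc38a3 and Slc6a19 were highest in K14;Nogo-A replicates 2, 7 and 10, as these markers were. Both genes were picked as higher in K14;Nogo-A, so sharing these top libraries was largely set by that choice. Slc38a3 was lowest in wild-type replicate 8, where the marker sum was lowest too. Slc6a19 was lowest in wild-type replicate 9, which had the highest marker sum of wild-type. In K14;Nogo-A replicate 1 Slc6a19, at 0.969 CPM, was above all wild-type libraries, though the marker sum there was below wild-type replicates 3 and 9. All 7 ameloblast markers were positive, with a median log2 fold change of 1.32. Of them 3 were past the study's thresholds as higher, against 2.02% of all genes tested. The part of the ameloblast markers in the carriers' values was not tested.

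None of the genes given here that work with the carriers rose or fell. Bsg, the chaperone that brings Slc16a1 and Slc16a3 to the membrane, was at 815 ± 59.5 CPM (SD, n = 4), compared with 656 ± 84.5 (SD, n = 3), with a log2 fold change of 0.31 (SE 0.11, adjusted p = 0.29). The log2 fold change of Bsg was positive, while those of Slc16a1 and Slc16a3 were negative. Emb, the other chaperone of this kind, had -0.08. Of 5 tested partners of carriers, Bsg and Emb among them, 1 was past the thresholds as higher and 0 as lower. Their median was 0.15, and over all genes tested 2.02% were higher. Of 20 genes of the amino acid response and of amino acid synthesis 0 were past the thresholds, with a median of -0.06. The proline enzyme Pycr1 had -0.41 (SE 0.17, adjusted p = 0.35) and the serine enzyme Psat1 -0.30 (SE 0.13, adjusted p = 0.36).

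Over all genes tested 2.74% were past the study's thresholds as lower and 2.02% as higher. Of 11 genes of lactate and pyruvate metabolism 1 was past the thresholds as lower and 0 as higher, with a median of -0.08. This was Pdk4, a pyruvate dehydrogenase kinase. It was at 8.31, 6.85, 9.38 and 9.84 CPM in K14;Nogo-A replicates 1, 2, 7 and 10. In wild-type replicates 3, 8 and 9 it was at 15.2, 13.8 and 12.7 CPM. The genotypes did not overlap, as in 6.09% of all genes with K14;Nogo-A below. The log2 fold change was -0.69 (SE 0.15, adjusted p = 0.17). Ldha, the main lactate dehydrogenase, had -0.23 (SE 0.14). Of 18 genes of amino acid sensing 1 was past the thresholds as higher and 0 as lower, with a median of 0.06. This was Castor1, an arginine sensor upstream of mTORC1, at 33.4 ± 4.99 CPM (SD, n = 4), compared with 22.5 ± 4.48 (SD, n = 3), with a log2 fold change of 0.57 (SE 0.16, adjusted p = 0.22). Of 9 tested mitochondrial and lysosomal carriers outside the 9 families 0 were past the thresholds. Their sum lay at 230 to 236 CPM in wild-type and at 245 to 253 in K14;Nogo-A, and 8 of their 9 log2 fold changes were positive, with a median of 0.10.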

How the data were processed

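The authors sequenced poly(A) RNA single end on an Illumina instrument, trimmed the reads, aligned them to GRCm38 with STAR (2.7.1) and made gene counts with featureCounts. The deposited values are these raw counts, 1 file per pup. The labels name a stranded kit, while the study's methods name TruSeq RNA v2. No source used here says whether strand was used in counting. Reads of the 16 carriers that share exon bases with another gene therefore cannot be split with certainty. The study had 4 wild-type pups, and 1 of them is not analysed here. Genotypes were taken from the labels.

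A gene was tested if it had 10 counts or more in at least 50% of either genotype's libraries. The fit used edgeR (4.0.16, R 4.3.3) with TMM factors, robust dispersions and the quasi-likelihood test. P-values were adjusted by Benjamini and Hochberg over all 14791 genes. Standard errors are the log2 fold change over the square root of F. The alternatives were DESeq2 (1.42.0), limma-voom (3.58.1), edgeR's likelihood-ratio test, other scalings and filters, covariates for mesenchyme markers or Y-linked genes, and each library left out in turn. The scripts were tested on simulated data. Exon lengths and coordinates came from the GRCm38 annotation and promoters from RefSeq (GRCm38.p6).

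Genes were named if past the study's thresholds, if among the 2 with the highest level per kilobase in their family, if among 8 well-known carriers, or if among the 3 smallest P of another list. Slc7a8, Slc38a1, Slc36a2, Slc38a11, Slc6a2, Slc38a7 and Slc16a13, and genes at the ends of an order or with a motif, were named after their values were seen. Emb was named outside this rule, beside Bsg. The members and lists were chosen with earlier results of these data known. A few genes are not reported here by name.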

Additional observations from a re-analysis of the deposited data

Results flagged for a closer look

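In each group of 4 K14;Nogo-A libraries the highest and lowest values were compared with the others by Dixon's ratio at its 95% limit, for 41 values, and 3 had a library far from the rest. Chance gives about 1 in 20. Slc1a4, a carrier of alanine and serine, was at 20.2 CPM in replicate 1 and between 29.7 and 31.5 in the others. Slc38a7 was at 23.2 CPM in replicate 2 and between 21.3 and 21.4 in the others, and Slc6a8 at 86.1 CPM in replicate 7 and between 77.4 and 78.3 in the others. The 3 wild-type libraries are too few for this ratio.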

How the results depend on the processing

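The count of carriers past the study's thresholds as lower, 2, was 4 with the likelihood-ratio test, 4 with DESeq2 and 6 with limma-voom, and 1 to 6 with a library left out (6 without K14;Nogo-A replicate 1 or 7, 4 if wild-type replicate 3 was left out, and 1 if wild-type replicate 8 or K14;Nogo-A replicate 10 was). Over all genes the lower count moved as well, from 406 to 487, 360 and 514 with these tools, to 545 without K14;Nogo-A replicate 1 and to 240 without wild-type replicate 8. The count of higher carriers, also 2, was 1 without a filter on low counts, 1 when Y-linked genes were a covariate, and 1 to 3 with a library left out (1 without K14;Nogo-A replicates 2, 7 or 10 or wild-type replicates 3 or 8). The higher count over all genes, 299, was 326 without the filter and 203 under the Y-linked covariate. The count of higher carriers at an adjusted p under 0.05, 0, was 1 with the likelihood-ratio test, and the count of lower carriers at that level, 0, was 0 to 1 with a library left out (Slc7a8, without K14;Nogo-A replicate 1). With the mesenchyme markers as a covariate Slc38a3 turned to -0.81 and Slc36a2 to 4.32 on the log2 scale, and Slc6a19 was at 0.54. That covariate, the mean log2 CPM of the markers, does not overlap between the genotypes (at most 7.96 in K14;Nogo-A, at least 8.36 in wild-type), so the fit extrapolates, although the summed CPM of the markers do overlap. The differences of the family sums moved by less than the spread between libraries when taken per kilobase of exon. No paired analysis was possible because the sample labels used here give no litter, so litter was neither matched nor adjusted for. With 4 against 3 pups and 10 to 48 counts for Slc6a19, small differences in the lowest carriers were not detectable.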
